A study of Mus musculus with 9 samples.

Results

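The transcripts described here are 9 genes of transforming growth factor beta (TGF-beta) signalling in mouse hepatic stellate cells, which store vitamin A and lie between hepatocytes and the sinusoidal wall. They comprise the ligands Tgfb1, Tgfb2 and Tgfb3, the receptors Tgfbr1, Tgfbr2, Tgfbr3 and Eng, and the SMAD genes Smad3 and Smad7. The genes were chosen by name, all 9 were found among the 35024 rows of the deposited table, and all 9 passed the filter on low values that left 17199 genes to test. The study set stellate cells lacking YAP against stellate cells that keep it, in livers injured by carbon tetrachloride (CCl4). The YAP-deleted group held 4 libraries (LYT006, LYT008, LYT013 and LYT016) from LratCre-positive YAP f/f mice, in which Cre is driven by the promoter of Lrat, a gene of stellate cells. The control group held 5 libraries (LYT004, LYT005, LYT014, LYT015 and LYT017) from YAP f/f mice without Cre. All mice had a C57BL/6J background and received 6 injections of CCl4 every 3 days, and cells were sorted on retinoid autofluorescence 2 days after the last injection and lysed at once. Mouse age, sex and whether each library came from 1 mouse are not given in the sources used here, so each p-value reflects library-to-library spread only, and some of that may be technical. Because the controls carry no Cre, an effect of the Cre transgene and an effect of YAP loss cannot be told apart.

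TGF-beta ligands are secreted in a latent form and, once released, bind a type II receptor that recruits and phosphorylates a type I receptor. The active receptor phosphorylates SMAD2 and SMAD3, which enter the nucleus with SMAD4 and switch on matrix and cytoskeletal genes. SMAD7 is an inhibitor induced by the pathway that closes a negative feedback loop. In injured liver TGF-beta is regarded as the main fibrogenic signal to stellate cells, and betaglycan (Tgfbr3) and endoglin (Eng) are co-receptors that present ligands or steer the response.

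The promoters of Tgfb2 and Eng are shown because these were the genes whose YAP-deleted and control libraries did not overlap once LYT013 and LYT014 were set apart. Each window holds 250 bases before and 50 after the annotated start, 5′ to 3′ on the strand of the gene (RefSeq, GRCm38.p6), with the SMAD box CAGAC, or GTCTG on the other strand, in capitals.
Tgfb2 (chr1:186705940-186706239, minus strand): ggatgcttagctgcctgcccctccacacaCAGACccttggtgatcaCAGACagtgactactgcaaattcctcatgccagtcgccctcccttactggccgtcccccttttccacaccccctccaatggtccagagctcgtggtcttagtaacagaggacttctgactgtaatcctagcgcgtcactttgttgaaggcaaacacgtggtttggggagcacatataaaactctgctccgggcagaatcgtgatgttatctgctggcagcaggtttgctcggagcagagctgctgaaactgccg
Eng (chr2:32646345-32646644, plus strand): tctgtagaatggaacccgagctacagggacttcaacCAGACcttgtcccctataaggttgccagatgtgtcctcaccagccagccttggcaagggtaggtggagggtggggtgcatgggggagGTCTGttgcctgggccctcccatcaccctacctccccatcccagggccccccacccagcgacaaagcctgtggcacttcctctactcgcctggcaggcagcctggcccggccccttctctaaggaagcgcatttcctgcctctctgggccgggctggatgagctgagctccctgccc

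Each window held 2 SMAD boxes, and at least 1 was present in 49.7% of the 27025 promoters of the same length in the table. A promoter window was matched for 6 of the 9 genes. The TEAD motif CATTCC, to which the DNA-binding partners of YAP attach, was searched on both strands and was in none of the matched windows, against 14.6% of all promoters. The Tgfb1 window was GC-rich (77%) and held 6 GC boxes (GGGCGG, on either strand), a motif found in 35.9% of promoters, while the windows of Tgfb2 and Eng held none. A match or its absence describes these letters in these windows only.

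Yap1 (chromosome 9, 7931999 to 8004596 on GRCm38, minus strand), the targeted gene, was read first. The YAP-deleted libraries LYT006, LYT008 and LYT016 had 642, 648 and 645 normalised counts while LYT013, labelled YAP-deleted, had 2529.8. The control libraries LYT004, LYT005, LYT015 and LYT017 had 2902, 2915, 3653 and 3551 while LYT014, labelled control, had 618. LYT013 and LYT014 therefore went against their labels at Yap1. As labelled, the difference was −1.30 log2-like units, given as a description because these values set LYT013 and LYT014 apart. Results are given with all 9 libraries as labelled and with these 2 shown apart, and no library was moved to another group. A normalised count is the whole count recovered from the deposited value divided by the size factor of its library, and recovered totals ran from 14051364 to 31812215 counts per library.

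LYT013 also stood apart in a way that touched most of these genes. It was the lowest library for 24.6% of all tested genes, against 5.26% to 13.018% for each other library, and the highest for 26.8%. Its deviation from the mean of the others followed transcript length: among genes at or above the median level it had a median of 0.68 log2-like units where the longest annotated transcript was under 2 kb, 0.14 from 2 to 4 kb, −0.28 from 4 to 6 kb and −0.64 from 6 kb. The same medians in the other libraries lay between −0.23 and 0.16. None of the 9 genes has a longest transcript under 2 kb, and 6 of them reach 4 kb.

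Endoglin had the highest level per length of the 9 genes, and Tgfb1 the highest of the ligands. Levels were compared between genes as normalised counts per kilobase of the longest annotated transcript, averaged over the 9 libraries. Eng had 7215 per kilobase, 5.44 times the next gene, which placed it above 99.2% of tested genes. Tgfbr3 followed at 1326, Tgfb1 at 758, Tgfbr2 at 549, Smad7 at 491, Smad3 at 354, Tgfbr1 at 289, Tgfb3 at 252 and Tgfb2 at 102, against a median of all tested genes of 66.8. Eng lay above Tgfbr3, and Tgfb3 above Tgfb2, in 9 of 9 libraries. Tgfbr2 and Smad7, and likewise Tgfbr1 and Tgfb3, kept this order in 7 of 9 libraries, so these neighbours were not separated beyond the spread between libraries. With the mean length over annotated transcripts in place of the longest, Tgfbr2 moved to place 6 and Tgfb2 and Tgfb3 changed places.

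No member differed between YAP-deleted and control libraries after adjustment. With all 9 libraries as labelled limma called 0 of the 9 members, against 0% of the 17199 tested genes, and limma voom on the recovered counts called 0 as well. At an unadjusted p under 0.05 there was 1 member (Tgfb1), against 7.22% of all genes (3.54% higher and 3.69% lower). Without LYT013 and LYT014 limma again called 0 members, against 0.0698% of all genes (12, with 0.0174% higher and 0.0523% lower), and voom called 0, while 3 members (Tgfb2, Eng and Smad3) had an unadjusted p under 0.05, against 6.29% of all genes (3.26% higher and 3.03% lower). The groups did not overlap for 1 member in the 9 libraries, against 2.84% of all genes (1.69% higher and 1.15% lower). In the 7 libraries they did not overlap for 2 members, against 7.32% of all genes (3.84% higher and 3.48% lower). The median difference of the 9 members was −0.11 in the 9 libraries, with 2 positive and 7 negative, and 0.08 in the 7 libraries, with 6 positive and 3 negative; over all tested genes it was −0.00 and −0.01.

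**Figure D1:**
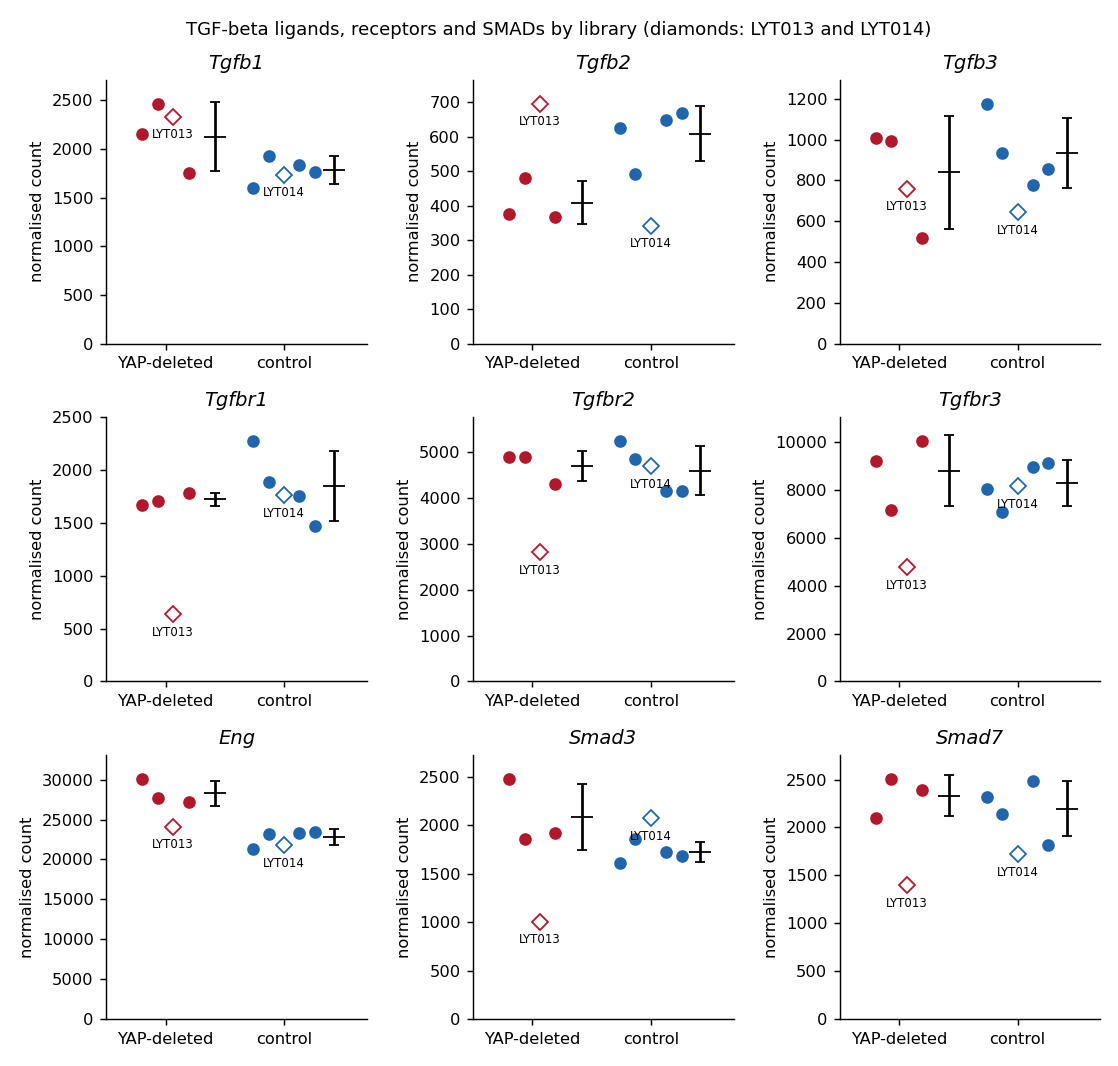
Normalised counts of the 9 genes in each library, with YAP-deleted libraries in red on the left and control libraries in blue on the right of each panel. Open diamonds mark LYT013 and LYT014, set apart for their Yap1 level, and the black bars give the mean ± SD without them (n = 3 YAP-deleted, n = 4 control). By label, Eng is higher in every YAP-deleted library, LYT013 included, than in any control library. Tgfb2 separates the groups only without the diamonds, and LYT013 is the lowest library for Tgfbr1, Tgfbr2, Tgfbr3, Smad3 and Smad7.

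Tgfb2 (chromosome 1, 186622792 to 186705989 on GRCm38, minus strand) encodes TGF-beta 2 and has been listed among the genes that YAP and TAZ activate. It had 376, 479.65 and 368 normalised counts in YAP-deleted LYT006, LYT008 and LYT016 and 695 in LYT013, labelled YAP-deleted, against 624, 492, 648 and 668 in control LYT004, LYT005, LYT015 and LYT017 and 342 in the library labelled control LYT014. The 4 lowest values belonged to LYT014, LYT016, LYT006 and LYT008, which are also the 4 libraries with the lowest Yap1. The values next to this split were close, at 479.65 in LYT008 and 492 in LYT005. No share of all tested genes is given for such a split, so it is a description of Tgfb2 only. LYT013 held the highest Tgfb2 value of all 9. Without LYT013 and LYT014, Tgfb2 averaged 408 ± 62.3 in YAP-deleted and 608 ± 79.4 in control libraries (SD, n = 3 and 4), a ratio of 0.671. The difference was −0.52 ± 0.13 log2-like units (SE, 95% interval −0.81 to −0.22), with unadjusted p = 0.00364 and a limma adjusted p = 0.533, place 109 among 17199 genes. With all 9 libraries as labelled it was −0.19 ± 0.21 (limma adjusted p = 0.765) and the groups overlapped. The difference was −0.34 among library codes 4 to 8, −0.06 among codes 13 to 17 as labelled, and −0.75 in the second range without LYT013 and LYT014, where 1 YAP-deleted library remains.

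**Figure D2:**
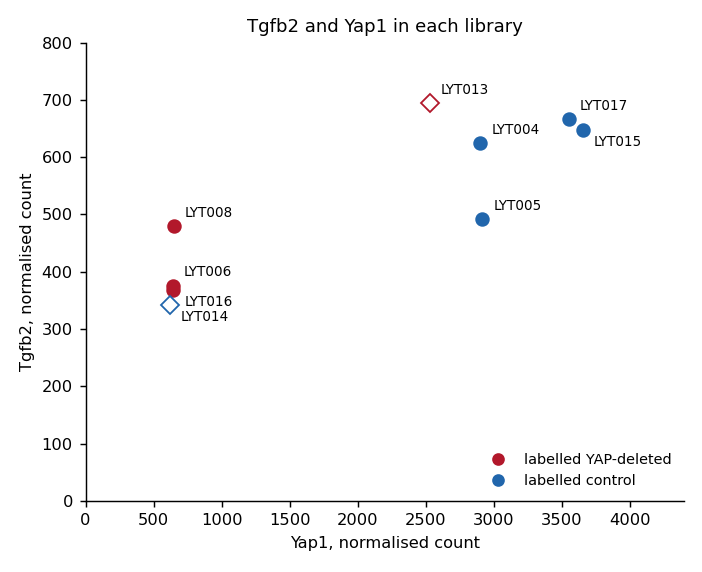
Tgfb2 against Yap1 in each of the 9 libraries, both as normalised counts, with colour giving the label and open diamonds marking LYT013 and LYT014. The 4 libraries with the lowest Yap1 counts, LYT014 among them, have 342 to 479.65 Tgfb2 counts. The other 5, LYT013 among them, have 492 to 695, so the gap is narrow, and the split was not tested. How many of all tested genes split in this way is not given.

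Tgfb1 (chromosome 7, 25687002 to 25705077, plus strand), the ligand most studied in fibrosis, had values that ran the other way. YAP-deleted LYT006, LYT008, LYT013 and LYT016 had 2149.6, 2462, 2328 and 1755 normalised counts, and control LYT004, LYT005, LYT014, LYT015 and LYT017 had 1595, 1930.5, 1735, 1838.5 and 1759.5. Of the 4 YAP-deleted libraries, 3 lay above every control and LYT016 lay among them. The difference was 0.28 ± 0.11 log2-like units in the 9 libraries (SE, 95% interval 0.03 to 0.53, unadjusted p = 0.0333, limma adjusted p = 0.649) and 0.24 ± 0.12 in the 7 (limma adjusted p = 0.791). It was 0.38 among codes 4 to 8, 0.18 among codes 13 to 17 as labelled and −0.03 in the second range without LYT013 and LYT014. Macrophages also make Tgfb1, and the summed level of 15 macrophage markers was 1149 to 2859 in YAP-deleted and 778 to 2097 in control libraries, led by Lyz2 at 463 to 947 and 426 to 954, with none of the 15 at 0. Of these markers 13 had a positive difference in the 9 libraries (median 0.17) and 14 in the 7 (median 0.23). With the mean of these markers as a term, the Tgfb1 difference in the 9 libraries was 0.31 ± 0.11 (SE, limma adjusted p = 0.565). Without the term it was 0.28. The part of macrophage RNA in the Tgfb1 difference was not tested beyond that fit.

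Tgfb3 (chromosome 12, 86056745 to 86079041, minus strand), which encodes the third ligand, had 1008, 991, 759 and 520.6 normalised counts in YAP-deleted LYT006, LYT008, LYT013 and LYT016 and 1176, 936, 644, 780.3 and 854 in control LYT004, LYT005, LYT014, LYT015 and LYT017. The groups overlapped over most of their range. Its difference was −0.11 ± 0.20 log2-like units in the 9 libraries and −0.19 ± 0.22 in the 7 (SE, limma adjusted p = 0.862 and 0.941).

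The ligands were also set against each other within a library, which removes a common size factor but not a trend over transcript length such as that of LYT013. As labelled, the share of each ligand overlapped between the groups, and the shares were not tested. Per kilobase of the longest transcript, Tgfb2 made up 6.09%, 6.98% and 7.92% of the 3 ligands in YAP-deleted LYT006, LYT008 and LYT016 and 10.7% in LYT013, against 11.2%, 8.56%, 11.8% and 12.2% in control LYT004, LYT005, LYT015 and LYT017 and 7.17% in LYT014. Tgfb1 made up 69.2% to 75.1% in the 4 YAP-deleted libraries and 56.9% to 72.4% in the 5 control libraries. The control library with the highest Tgfb1 share was LYT014.

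Among the receptors, Eng (chromosome 2, 32646595 to 32682669, plus strand) separated the groups as labelled. It was the 1 member with every YAP-deleted library above every control library in the 9 libraries, as was so for 1.69% of all tested genes. The same then holds in the 7, which are part of the 9. Endoglin is a co-receptor best known from endothelium, where it acts with the type I receptor ALK1. YAP-deleted LYT006, LYT008, LYT013 and LYT016 had 30106, 27659, 24103 and 27151 normalised counts, and control LYT004, LYT005, LYT014, LYT015 and LYT017 had 21344, 23235, 21809, 23351 and 23461. By Yap1 level Eng did not separate the libraries. LYT014, with the lowest Yap1 at 618, had 21809, and LYT013, with 2529.8 Yap1 counts, had 24103. The 4 YAP-deleted libraries averaged 27255 ± 2466 and the 5 control libraries 22640 ± 988 (SD), a ratio of 1.20. On the log2-like scale the difference was 0.26 ± 0.13 in the 9 libraries (SE, 95% interval −0.03 to 0.56, limma unadjusted p = 0.0743, limma adjusted p = 0.649). In the 7 libraries the difference was 0.31 ± 0.12 (95% interval 0.02 to 0.59, unadjusted p = 0.0368, limma adjusted p = 0.764). It was 0.37 among codes 4 to 8, 0.16 among codes 13 to 17 as labelled and 0.21 in the second range without LYT013 and LYT014.

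The sum of 15 endothelial markers was 2855 to 5438 normalised counts in YAP-deleted and 1862 to 5930 in control libraries, led by Clec4g at 1026 to 3086 and 686 to 1973. The highest sum of each group was that of LYT013 or LYT014. Without these libraries the sums were 2855 to 3189 in YAP-deleted and 1862 to 4294 in control libraries. None of the 15 was at 0, and 5 had a positive difference in the 9 libraries (median −0.07) and 8 in the 7 (median 0.02). With the mean of these markers as a term, the Eng difference in the 9 libraries was 0.26 ± 0.13 (SE, limma adjusted p = 0.569), and without the term it was also 0.26. The part of endothelial RNA in the Eng difference was not tested beyond that fit. Stellate cell markers, led by Dcn, summed to 776250 to 1088100 in YAP-deleted and 656010 to 1009000 in control libraries, with none of the 12 at 0. The sums of the remaining marker lists overlapped between the groups. Hepatocyte markers, led by Ass1, summed to 1299.9 to 2059.5 in YAP-deleted and 986 to 1773 in control libraries. Cholangiocyte markers, led by Spp1, summed to 49.1 to 213 and 49.0 to 158, and lymphocyte markers, led by Ptprc, to 20.4 to 35.9 and 21.7 to 33.6. Vascular smooth muscle markers, led by Abcc9, summed to 44804 to 80915 and 54096 to 72443. Abcc9 alone had 16415 to 57914 and 32914 to 49570, so this sum leans on that gene and is no estimate of smooth muscle content. Portal fibroblast and mesothelial markers, led by Eln, summed to 4411 to 11898 and 5085 to 13659. In bulk samples a change in the number of cells of a type and a change in RNA per cell cannot be told apart.

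Tgfbr1 (chromosome 4, 47353222 to 47414931, plus strand) encodes the type I receptor kinase that phosphorylates SMAD2 and SMAD3. It had 1668, 1712, 635 and 1788 normalised counts in YAP-deleted LYT006, LYT008, LYT013 and LYT016 and 2273, 1889, 1763, 1758 and 1472 in control LYT004, LYT005, LYT014, LYT015 and LYT017. LYT013 held 0.355 times the mean of the other 8 libraries, and every other YAP-deleted library lay within the control range. The difference was −0.41 ± 0.27 log2-like units in the 9 libraries and −0.08 ± 0.13 in the 7 (SE, 95% interval −0.39 to 0.22, limma adjusted p = 0.653 and 0.958). Leaving out LYT013 alone gave −0.07.

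Tgfbr2 (chromosome 9, 116084293 to 116175360, minus strand), the type II receptor that binds the ligand, had 4902, 4886, 2816 and 4315 normalised counts in YAP-deleted LYT006, LYT008, LYT013 and LYT016, against 5237, 4845, 4694, 4145 and 4153 in control LYT004, LYT005, LYT014, LYT015 and LYT017. Tgfbr3 (chromosome 5, 107106570 to 107289629, minus strand), betaglycan, which presents TGF-beta 2 to the signalling receptors, had 9233, 7181, 4786 and 10047 in the same YAP-deleted libraries and 8043.5, 7068, 8169, 8992 and 9144 in the same control libraries. In both genes LYT013 was the lowest library and the others overlapped. The differences in the 7 libraries were 0.04 ± 0.11 log2-like units for Tgfbr2 (SE, 95% interval −0.22 to 0.29) and 0.08 ± 0.15 for Tgfbr3 (95% interval −0.26 to 0.41), with limma adjusted p = 0.976 and 0.959. As labelled, with LYT013 included, they were −0.15 ± 0.17 and −0.13 ± 0.20. Without LYT013 alone they were 0.03 and 0.08.

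Smad3 (chromosome 9, 63646767 to 63757994, minus strand), the receptor-activated SMAD that carries much of the fibrogenic response, had 2479, 1855, 1003 and 1921 normalised counts in YAP-deleted LYT006, LYT008, LYT013 and LYT016 and 1615, 1861, 2071, 1728 and 1680.3 in control LYT004, LYT005, LYT014, LYT015 and LYT017. In the 7 libraries it averaged 2085 ± 343 in YAP-deleted and 1721 ± 104 in control libraries (SD, n = 3 and 4), a ratio of 1.21, and the groups overlapped, since YAP-deleted LYT008 lay just under control LYT005. That difference was 0.26 ± 0.11 log2-like units (SE, 95% interval 0.00 to 0.51, unadjusted p = 0.0483, limma adjusted p = 0.789). As labelled it was −0.04 ± 0.21 (limma adjusted p = 0.954), and without LYT013 alone it was 0.21.

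Smad7 (chromosome 18), the inhibitory SMAD, is the feedback target of the pathway among the 9 genes. It had 2097, 2508, 1400.1 and 2395 normalised counts in YAP-deleted LYT006, LYT008, LYT013 and LYT016 and 2323, 2145, 1724, 2491 and 1817 in control LYT004, LYT005, LYT014, LYT015 and LYT017. LYT013 was lowest, LYT014 was the next, and the groups overlapped. The difference was 0.09 ± 0.12 log2-like units in the 7 libraries (SE, 95% interval −0.18 to 0.36, limma adjusted p = 0.945) and −0.02 ± 0.18 in the 9 (limma adjusted p = 0.978).

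**Figure D3:**
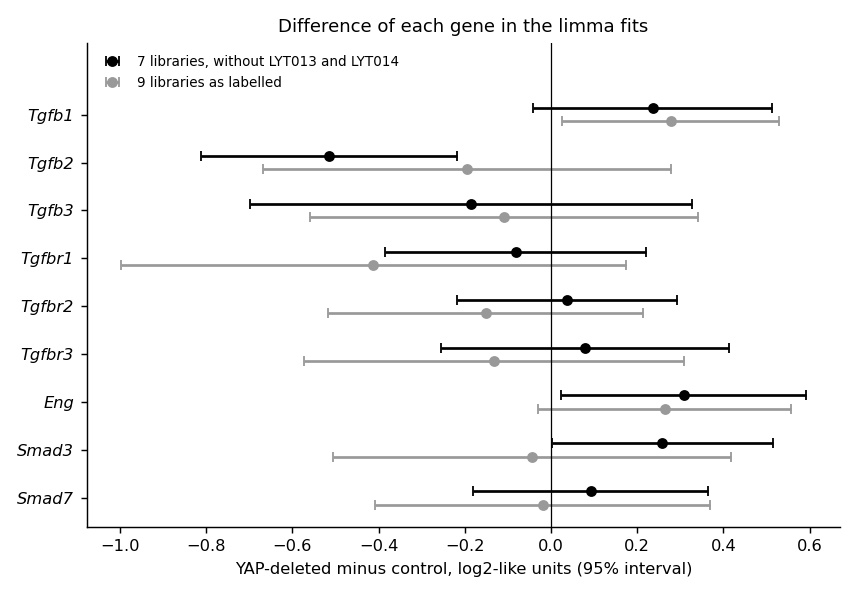
Differences between YAP-deleted and control libraries in log2-like units with 95% intervals from limma, in black without LYT013 and LYT014 (3 against 4 libraries) and in grey with all 9 as labelled (4 against 5). In the 7 libraries the interval of Tgfb2 lies below 0 and those of Eng and Smad3 lie above 0 before adjustment over all genes, and none of the 9 genes passed after it.

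LYT013 was the lowest of the 9 libraries for 5 of the 9 members (Tgfbr1, Tgfbr2, Tgfbr3, Smad3 and Smad7) and the highest for Tgfb2. Its ratio to the mean of the other 8 was 0.355 for Tgfbr1, 0.527 for Smad3, 0.564 for Tgfbr3, 0.606 for Tgfbr2 and 0.640 for Smad7, against 0.879 for Tgfb3, 0.973 for Eng, 1.22 for Tgfb1 and 1.39 for Tgfb2. The 3 members with a longest transcript under 4 kb are Tgfb1, Eng and Tgfb3, and Tgfb2, at 5.12 kb, went against the trend in length. After removal from each library of its own trend over transcript length and GC content, an alternative chosen after seeing the data, the differences as labelled were −0.24 for Tgfbr1, 0.04 for Tgfbr2, 0.01 for Tgfbr3, −0.00039 for Smad3 and −0.06 for Smad7. Tgfb2 differed by −0.08 as labelled after the same removal, against −0.19 before it, and by −0.47 in the 7 libraries, against −0.52 before it.

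**Figure D4:**
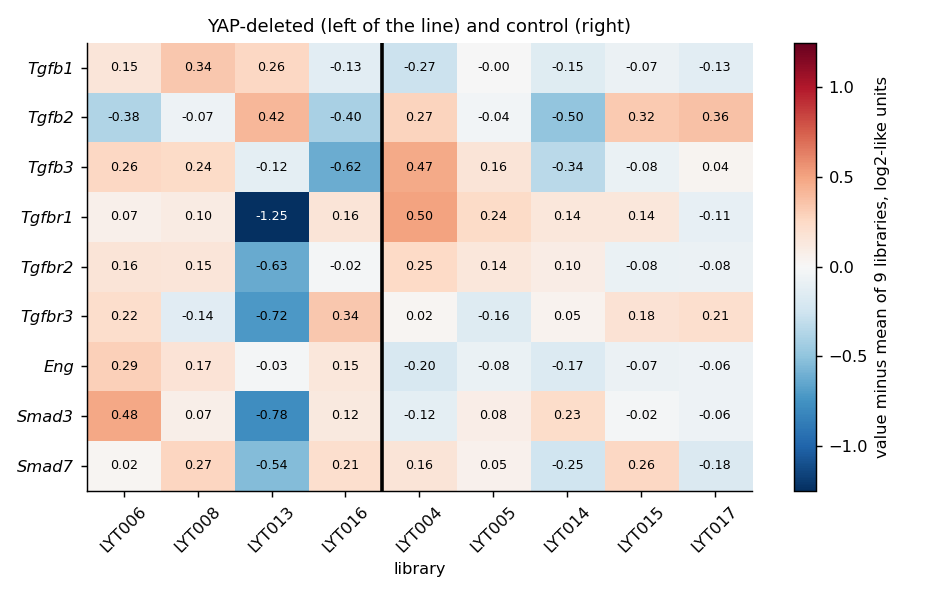
Deviation of each gene from its mean over the 9 libraries in log2-like units, with genes in rows and libraries in columns, YAP-deleted to the left of the black line and control to the right. LYT013 holds the lowest cell of 5 rows, and the Tgfb2 row is lowest in LYT014, LYT016 and LYT006.

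The genes whose values ran most alike over the 9 libraries were found by Pearson correlation among the 8600 tested genes at or above the median level, as a description of 9 points that share depth and the LYT013 library. For Tgfb2 the closest was Ajuba, which encodes a LIM protein that restrains the LATS kinases of the Hippo pathway (r = 0.956, Spearman rho = 0.983, and r = 0.961 without LYT013 and LYT014, the 2 libraries farthest from the median of Tgfb2). Ajuba had 346, 356 and 264 normalised counts in YAP-deleted LYT006, LYT008 and LYT016 and 1162 in LYT013, against 660.4, 479.6, 780.3 and 848 in control LYT004, LYT005, LYT015 and LYT017 and 281 in LYT014. Rem1, a small GTP-binding protein, was next (r = 0.928). For Eng the closest was the sphingosine kinase Sphk2 (r = 0.965), and r was 0.9605 without LYT006 and LYT008. Tgfb1 ran closest to the acyltransferase Agpat1 (r = 0.968, and 0.966 without LYT008 and LYT013). The closest genes to Tgfbr1, Tgfbr2, Tgfbr3, Smad3 and Smad7 were Manea, Myo1d, Prrc2b, Cdc42bpb and Ndor1. Their r ran from 0.942 to 0.992 over all libraries, and from 0.841 to 0.970 without LYT013. Without the 2 libraries farthest from the median of each member, r was 0.751, 0.934, 0.968, 0.778 and 0.759 in the same order. For Tgfb3 it was the matricellular protein Smoc2 (r = 0.922, and 0.768 without LYT004 and LYT016).

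Other genes of the pathway were read from 4 lists. Among nuclear partners of the SMADs, 0 of 14 tested genes passed in the 9 or the 7 libraries, with 3 positive and 11 negative differences in the 9 libraries (median −0.23) and 7 positive and 7 negative in the 7 (median −0.03). In the 7 libraries Zeb2, a SMAD-binding repressor, differed by −0.26 ± 0.16 log2-like units, its relative Zeb1 by 0.24 ± 0.15, and the corepressor Tgif1 by −0.28 ± 0.20 (SE). The general factor Sp1 differed by −0.15 ± 0.12, and Skil, a corepressor that TGF-beta induces, by −0.12 ± 0.12. Their limma adjusted p-values in the 7 libraries ran from 0.829 to 0.930. In the 9 libraries these genes differed by −0.51, −0.01, −0.29, −0.34 and −0.32 in that order (limma adjusted p from 0.649 to 0.993). Foxh1 was not tested, with no more than 1.07 normalised counts in any library.

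None of 16 regulators of the receptors and SMADs passed in either fit (9 positive and 7 negative in the 9 libraries, median 0.02, and likewise 9 and 7 in the 7, median 0.04). Bambi, a decoy receptor without a kinase that dampens TGF-beta signalling, had 4284, 3442, 4059 and 3369 normalised counts in YAP-deleted LYT006, LYT008, LYT013 and LYT016, against 3028, 2381, 3351, 3243 and 3300.1 in control LYT004, LYT005, LYT014, LYT015 and LYT017. Every YAP-deleted library thus lay above every control library, as was so for 1.69% of all tested genes. The difference was 0.31 ± 0.13 in the 9 libraries (SE, limma adjusted p = 0.649). Bambi was named for its small p within the list, so the separation is not independent of that choice. Dab2, an adaptor that links the receptors to SMADs, averaged 516 ± 30.6 in the 3 YAP-deleted and 835 ± 247 in the 4 control libraries (SD), a difference of −0.59 ± 0.21 (SE, limma adjusted p = 0.715). The deubiquitinase Usp15 and the ligase Stub1 differed by −0.15 ± 0.09 and 0.14 ± 0.09 in the 7 libraries. In the 9 libraries Usp15, Stub1 and Dab2 differed by −0.19, 0.36 and −0.47.

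Of 29 tested response genes, 1 passed in the 7 libraries and none in the 9. In each fit 10 differences were positive and 19 negative, with a median of −0.21 in the 9 libraries and −0.12 in the 7, against −0.00 and −0.01 over all genes. The 1 that passed was Tnc, a matrix glycoprotein of injured tissue, with 3169, 3856 and 3174.5 normalised counts in YAP-deleted LYT006, LYT008 and LYT016, against 7713, 7798, 6672 and 7025 in control LYT004, LYT005, LYT015 and LYT017. The libraries labelled YAP-deleted LYT013 and control LYT014 had 4014 and 4629. These lay between the values of the other YAP-deleted and control libraries, in the order of their labels and not of their Yap1 level. In the 7 libraries Tnc fell by 1.09 ± 0.11 log2-like units (SE, limma adjusted p = 0.0110), a call that ended without LYT004, LYT006, LYT016 or LYT017. As labelled, its difference in the 9 libraries was −0.90 ± 0.16 (SE, limma unadjusted p = 0.000176, adjusted p = 0.649, place 2 among 17199 genes). Every YAP-deleted library then lay below every control library, as was so for 1.15% of all tested genes. Tnc was named for its small p, so the separation is not independent of that choice. In the 7 libraries the actin-binding Tagln differed by −1.15 ± 0.28, the cytokine Il11 by −0.31 ± 0.10 and the early response factor Junb by 0.43 ± 0.20. The crosslinking enzyme Lox differed by −1.17 ± 0.71. Their limma adjusted p-values in the 7 libraries lay between 0.519 and 0.831. In the 9 libraries these genes differed by −0.47, −0.21, 0.46 and −1.30 in that order (limma adjusted p from 0.649 to 0.748). Il11 was near the lowest value, with 3.83 (LYT008) to 15.6 (LYT013) normalised counts per library. Acta2, named after its values were seen, had the lowest difference of the list in the 7 libraries at −1.49 (limma adjusted p = 0.790). In the 9 libraries Acta2 differed by −0.98, and Lox had the lowest difference. Acta2 ran from 430 normalised counts in YAP-deleted LYT016 to 4900 in control LYT005. Comp was not tested, with no more than 2.50 normalised counts in any library.

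The last list held the activin branch, whose receptors share SMAD2 and SMAD3 with TGF-beta, and apart from that branch related receptors such as Acvrl1. Of its 11 tested genes, 0 passed in either fit (1 positive and 10 negative in the 9 libraries, median −0.19, and 5 positive and 6 negative in the 7, median −0.06). Acvrl1, which encodes ALK1, the type I receptor that works with endoglin, averaged 30.7 ± 4.26 normalised counts in the 3 YAP-deleted and 60.8 ± 19.7 in the 4 control libraries (SD), a difference of −0.48 ± 0.16 (SE, unadjusted p = 0.0164, limma adjusted p = 0.673). In the 7 libraries the activin binding protein Fstl3 differed by −0.67 ± 0.24, and its relatives Fst and Fstl1 by 0.27 ± 0.13 and −0.34 ± 0.25. The activin receptor Acvr1b differed by −0.29 ± 0.19 (limma adjusted p from 0.717 to 0.878 for these genes). In the 9 libraries they differed by −0.43, 0.19, −0.36 and −0.20 in that order, and Acvrl1 by −0.28. Fst was listed at 0 in the 4 control libraries of the 7 and in YAP-deleted LYT008, and had no more than 4.17 normalised counts in any library. Mstn and Tdgf1 were at 0 in every library.

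**Figure D5:**
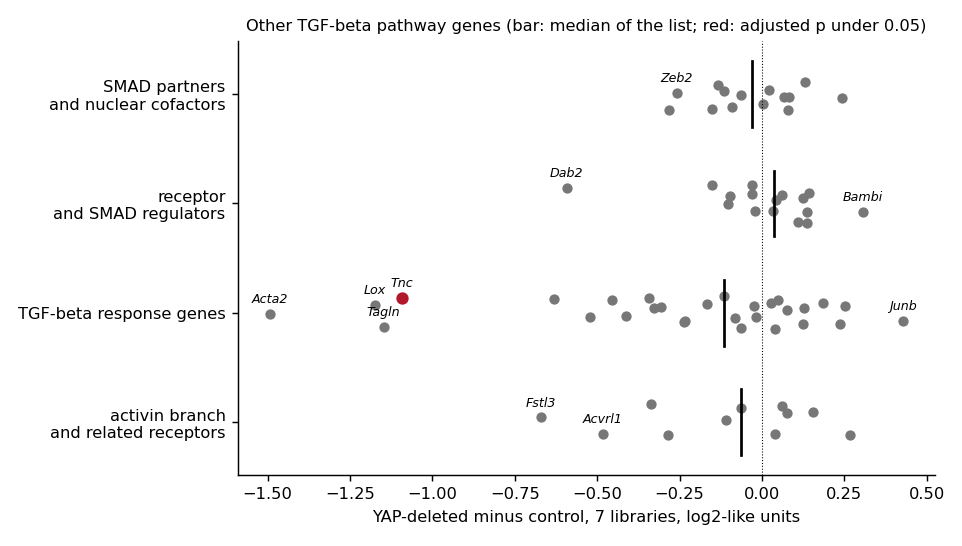
Differences between YAP-deleted and control libraries without LYT013 and LYT014 in log2-like units for the tested genes of 4 pathway lists, 1 point per gene, with the vertical spread only for legibility. Bars mark the list medians of −0.03, 0.04, −0.12 and −0.06, and the red point is Tnc, the 1 gene past the adjusted threshold.

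All 24 genes of a cell cycle list had negative differences in both the 9 and the 7 libraries, as did 8754 and 8845 of the 17199 tested genes, with list medians of −0.98 and −0.60 log2-like units. The groups overlapped in the sum of these genes. Their summed level was 31149 normalised counts in YAP-deleted LYT008, against 32123 and 44165 in control LYT004 and LYT005, and between 2763 and 11108 in the other libraries of both groups. With the cell cycle mean as a term, the differences in the 7 libraries were −0.52 for Tgfb2, 0.30 for Eng and 0.26 for Tgfb1, with limma adjusted p-values of 0.157, 0.290 and 0.406.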

How the data were processed

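The table gives log2 values per gene and library, deposited by the authors after a variance-stabilising transformation for which the sources used here give no settings. The submitters' processing notes name bcl2fastq 2.20, kallisto 0.44.0, sleuth and the builds GRCm38, mm10 and GRCh38, without roles. Per the labels' protocols, libraries were made by poly-A selection or by ribosomal RNA depletion, with no statement per library. The column of LYT013 carries an added suffix in the header.

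The lowest value, 4.96, was taken as a count of 0, and the transformation was inverted, which gave whole counts within 0.1. These were divided by size factors to give normalised counts, which were used to describe levels. Because the deposited unit is a log scale, differences were tested on the deposited values with limma 3.58.1 in R 4.3.3, a linear model on group with a variance trend. Tests were two-sided with Benjamini-Hochberg adjustment over 17199 genes that exceeded the lowest value in 4 or more libraries, at a threshold of 0.05. Fits used all 9 libraries as labelled, and 7 without LYT013 and LYT014, a choice that rests on their Yap1 level. The procedure was tested on simulated counts, which held no trend over transcript length and no library at odds with its label. That test does not cover these features of the data. Intervals are at 95%. Positions and transcript lengths came from GENCODE M21, in which 99.4% of row names matched, and 26 row names had been turned into dates. No exon-level values were used, so reads from the deleted part of Yap1 were not separated from the rest.

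The members, gene lists and marker lists were chosen with earlier results of these data known. List genes named in the text were those with the smallest p, up to 4 per list in the 7 libraries and up to 2 in the 9. Genes most like a member were the 2 with the highest Pearson r, and each marker list is named with its most abundant gene.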

Additional observations from a re-analysis of the deposited data

Results flagged for a closer look

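Each gene was checked in each group, 18 groups of values in all, for a library far from the others, a check that chance alone meets in about 1 group in 20. It was met in 1 of the 18. Tgfbr1 in the YAP-deleted library LYT013 had 634.85 normalised counts, and the gap to the nearest YAP-deleted library, LYT006 at 1668, made up 0.931 of the range of that group. The part that the transcript length trend of LYT013 has in this value was not tested.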

How the results depend on the processing

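No member passed the adjusted threshold under any of 22 alternatives in the 9 libraries (lowest adjusted p = 0.419, Tgfb1 without LYT016) or any of 20 in the 7 (lowest 0.157, Tgfb2 with the cell cycle mean as a term). In the 7 libraries Tgfb2 kept an unadjusted p under 0.05 in 20 of 20 alternatives (−0.62 to −0.45, adjusted p 0.157 to 0.999), Eng in 10 (0.24 to 0.34), Smad3 in 14 (0.13 to 0.33) and Tgfb1 in 3 (0.12 to 0.36). In the 9 libraries Tgfb1 did so in 15 of 22 (0.20 to 0.37). In the 9 libraries the sign turned for Smad7 with median-centring (0.00051), with library weights for Tgfb3 (0.022), Tgfbr2 (0.038), Tgfbr3 (0.024), Smad3 (0.20) and Smad7 (0.10), with the macrophage term for Tgfb3 (0.0095) and Smad7 (0.00062), and with the cell cycle term for Smad7 (0.039). With the length and GC trend removed, chosen after seeing the data, it turned for Tgfbr2 (0.036) and Tgfbr3 (0.0054). Leaving out 1 library at a time gave ranges of −0.22 to 0.077 for Tgfb3, −0.23 to 0.030 for Tgfbr2, −0.27 to 0.082 for Tgfbr3, −0.21 to 0.21 for Smad3 and −0.11 to 0.16 for Smad7. In the 7 libraries the sign turned for Tgfbr2 with the range of library codes as a term (−0.0023), and leaving out 1 library gave −0.34 to 0.10 for Tgfb3, −0.18 to 0.020 for Tgfbr1, −0.0092 to 0.10 for Tgfbr2 and −0.022 to 0.22 for Tgfbr3. The cause of these turns was not tested. Genes called in the 7 libraries numbered 12, against 7 with limma voom, 25 with the code range, 26 with the macrophage and 37 with the cell cycle term, and 2 to 11 without 1 library; the response list went to between 0 and 1. The Yap1 difference ran from −1.77 to −1.14 without 1 library, and without LYT014 it was −1.76; this is a description, since Yap1 set LYT013 and LYT014 apart. No paired analysis was possible because each library has its own code and the groups share no replicate numbers. Groups of 3 and 4 libraries limit what could be called.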
